A study of Mus musculus with 18 samples.

Results

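Collagen and laminin chains, the building blocks of the fibres and sheets that cells rest on, were examined in mouse breast cancer cells that differ in integrin β3 and were exposed to docetaxel. Of 32699 gene symbols in the count table, 55 follow the naming pattern of collagen chains (44) or laminin chains (11), and 28 of these, 21 collagens and 7 laminins, reached at least 10 counts in 3 or more libraries. Among all symbols, 12087 reached that level. The cells were PyMT-BO1, a luminal B-like mammary tumour line of C57BL/6 mice, and every culture carried an integrin β3 knockout. The pMx line received an empty retroviral vector, the hβ3 line a functional human integrin β3, and the Δβ3 line a mutant integrin β3 that lacks signalling. Each line was treated for 24 h with DMSO, the solvent, or with 10 nM docetaxel, a taxane that stabilises microtubules, in 3 cultures per group. There is 1 line per construct, grown on plastic with serum, and no label says whether a line is a clone. The p-values therefore measure the spread between cultures of these lines, and a difference between lines contains everything else that separates them.

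Collagen chains assemble as trimers. Types I, III and V form fibrils, type IV and the laminins form the networks of the basement membrane under epithelia, and type VI forms beaded filaments that link basement membrane and stroma. Type VII builds the fibrils that anchor epithelium to stroma, type VIII forms sheets, and types IX, XII, XVI and XX decorate fibrils. A laminin joins an alpha, a beta and a gamma chain, and integrins are the main receptors through which cells hold on to both families.

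Several of the chains with large differences are encoded next to each other, and the sequence upstream of 5 genes is shown so that the pairs can be compared. Col4a5 and Col4a6 on the X chromosome are transcribed away from each other from starts 1343 bases apart, and Col6a2 and Col6a1 on chromosome 10 follow each other with 85.2 kb between them. Col7a1 on chromosome 9 is added because it differed between lines in the other direction. The stretches come from RefSeq promoters of GRCm38.p6, which held 19 of the 28 members, are given 5′ to 3′ on the gene's strand, and end before the first annotated transcript start. Capitals mark matches, on either strand, to a GC box (GGGCGG) or a CCAAT box (CCAAT). A match describes the letters and is no evidence of binding, and the Col6a1 stretch holds none.
Col6a1 (chr10:76726169-76726294, minus strand): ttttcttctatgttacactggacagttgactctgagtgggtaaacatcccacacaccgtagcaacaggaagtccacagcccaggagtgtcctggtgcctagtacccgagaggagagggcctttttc
Col6a2 (chr10:76623631-76623880, minus strand): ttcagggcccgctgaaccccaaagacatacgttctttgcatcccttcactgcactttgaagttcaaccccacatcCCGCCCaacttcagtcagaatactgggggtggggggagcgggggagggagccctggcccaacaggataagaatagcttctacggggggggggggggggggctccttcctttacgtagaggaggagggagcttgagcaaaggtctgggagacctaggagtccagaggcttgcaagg
Col4a6 (chrX:141474077-141474326, minus strand): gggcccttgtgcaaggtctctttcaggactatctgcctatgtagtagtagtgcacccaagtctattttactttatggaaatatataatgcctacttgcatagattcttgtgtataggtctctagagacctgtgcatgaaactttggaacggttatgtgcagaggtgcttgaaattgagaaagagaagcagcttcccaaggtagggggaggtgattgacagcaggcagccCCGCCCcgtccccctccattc
Col4a5 (chrX:141475169-141475384, plus strand): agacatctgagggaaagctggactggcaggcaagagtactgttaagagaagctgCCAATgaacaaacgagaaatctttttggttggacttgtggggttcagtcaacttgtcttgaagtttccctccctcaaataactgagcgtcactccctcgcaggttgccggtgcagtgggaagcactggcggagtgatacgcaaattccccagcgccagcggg
Col7a1 (chr9:108953336-108953585, plus strand): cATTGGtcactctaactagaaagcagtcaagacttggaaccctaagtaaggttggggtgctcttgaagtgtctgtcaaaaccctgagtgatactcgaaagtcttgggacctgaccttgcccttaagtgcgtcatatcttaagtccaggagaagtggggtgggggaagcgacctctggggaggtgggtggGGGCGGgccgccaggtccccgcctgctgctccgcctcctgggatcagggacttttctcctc
Over whole windows of 250 bases before the start, 13 of the 19 members held a GC box, against 32.7% of all 32851 RefSeq promoters. A member counts if any of its promoters matches (21 promoters for the 19 members), whereas the shares are over single promoters. A CCAAT box was held by 7 members and by 33.8% of all promoters, TATAAA by 2 members and 12.4%, and TGANTCA, the AP-1 motif, by 1 member (Col6a1, in a part not shown) and 6.75%. No pair of these motifs overlaps in its letters within the stretches shown.

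The libraries held 7972612 to 18961392 counts. Levels below are counts-per-million values (CPM) of the scaled library, and since they are not divided by gene length, they compare cultures and never genes. In bulk RNA, fewer cells that express a gene and less RNA per cell cannot be told apart. The culture numbered 1 of Δβ3 in DMSO and the culture numbered 2 of Δβ3 in docetaxel held heart muscle RNA: the summed level of 25 heart muscle markers was 6565 CPM and 54649 CPM, against 216 to 2782 CPM in the other libraries. Both were left out of all tests, so the Δβ3 groups have 2 cultures and the others 3, and 12356 genes were tested in 16 libraries. The luminal keratins Krt8 and Krt18 were present throughout, with 1462 ± 109 and 1071 ± 76.4 CPM in pMx DMSO (SD, n = 3). Of 12 listed luminal markers only 3 had enough counts to be tested, these keratins and Cdh1, at 0.892 ± 0.148 CPM in pMx DMSO. The luminal transcription factors Elf3 and Ehf had 0 counts in every library. Itgb3, the targeted gene, stood at 1.01 ± 0.581 CPM in pMx DMSO, 116 ± 2.23 in Δβ3 DMSO (SD, n = 2) and 112 ± 32.9 in hβ3 DMSO. Reads were counted on the mouse genome while the hβ3 construct is human, and how completely construct reads were counted was not tested. The precursor of ribosomal RNA, Rn45s, took 10.9% to 33.0% of the counts in hβ3 libraries and 6.59% to 10.0% in the other 10 tested libraries.

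Of the 28 members 27 were tested, and 1, Col4a3, reached 10 counts in enough libraries only through the 2 left-out cultures. The 27 symbols that follow the pattern but are no members include 9 with 0 counts in every library, among them Col2a1, Col9a1 and Lamc3. Low counts do not show that a gene is silent here: Col4a1, which pairs with Col4a2 in the common type IV trimer and lies head to head with it, had at most 2 counts in a library, whereas Col4a2 had 7642 to 18771. How reads shared by overlapping models were counted is not stated, and its part in these low counts was not tested.

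The first comparison set the hβ3 line against the pMx line in DMSO, that is, cells with and without functional integrin β3. Type VI, type IV α5 and α6, type XVIII, type V α1 and type III chains were lower in hβ3, as were laminins α5 and β2, whereas collagens VII and XII were higher. The strongest decrease in a well-counted gene was that of Col6a1, at an average of 140.2 ± 10.2 CPM in pMx and 20.2 ± 3.73 CPM in hβ3 (SD, n = 3 each), and the strongest increase that of Col12a1, from 1.06 ± 0.280 to 5.41 ± 1.19 CPM. In edgeR's quasi-likelihood test 15 of 27 chains were called, 4 higher and 11 lower, where 26.8% of all tested genes were called, 13.3% higher and 13.5% lower. The median log2 difference was -0.45 over the chains and -0.03 over all genes. In docetaxel 16 chains were called, 3 higher and 13 lower (27.3% of all genes, 15.2% higher and 12.2% lower), with a median of -0.59 against -0.03. With all 18 libraries, over which the biological coefficient of variation is 36.1% rather than 13.2%, 7 chains were called in DMSO and 9 in docetaxel, and calls over all 12145 genes tested there were 1095 and 1027, against 3312 and 3378 with 16 libraries.

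**Figure D1:**
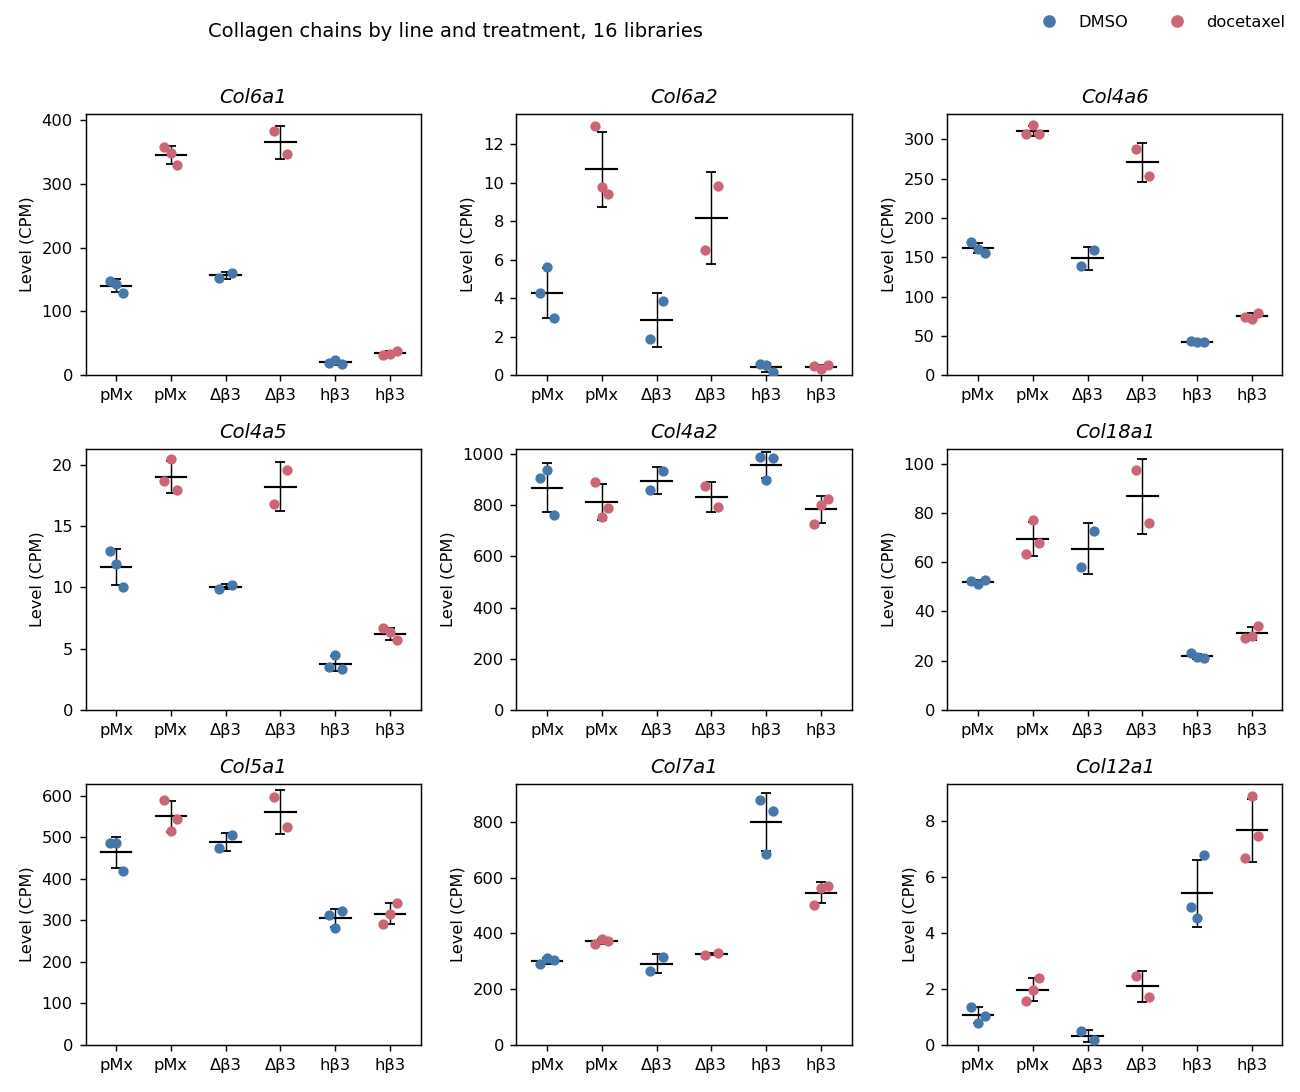
Level of 9 collagen chains (y axis, CPM of the scaled library) in each tested culture, by line (x axis) and treatment (blue DMSO, red docetaxel); horizontal bars are means and whiskers the SD over 3 cultures, or 2 for Δβ3. The hβ3 cultures sit below all others for Col6a1, Col6a2, Col4a5, Col4a6, Col18a1 and Col5a1, above all others for Col7a1 and Col12a1, and among them for Col4a2.

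Type VI collagen differed most. Col6a1 (chr10:76708792-76726168), the α1 chain, stood at 148, 143 and 129 CPM in pMx DMSO, 153 and 161 CPM in Δβ3 DMSO and 18.7, 24.4 and 17.4 CPM in hβ3 DMSO. The highest hβ3 culture was thus far below the lowest culture of either other line. The difference between hβ3 and pMx was -2.79 ± 0.11 (SE, adjusted p = 1.1e-15) on the log2 scale in DMSO and -3.34 ± 0.11 (SE, adjusted p = 5.9e-17) in docetaxel, where the hβ3 cultures held 31.1, 33.1 and 38.6 CPM and the pMx cultures 358, 349 and 330.3 CPM.

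Col6a2 (chr10:76595762-76623630), the α2 chain, held 4.25, 5.60 and 2.99 CPM in pMx DMSO, 1.87 and 3.88 CPM in Δβ3 DMSO and 0.571, 0.512 and 0.147 CPM in hβ3 DMSO. The hβ3 values rest on 2 to 8 counts per library and lie below every other DMSO culture. The differences were -3.34 ± 0.39 (SE, adjusted p = 4.0e-07) in DMSO and -4.62 ± 0.38 (SE, adjusted p = 1.4e-09) in docetaxel. Col6a3, the α3 chain on chromosome 1, is counted at 0.0735 to 4.24 CPM, and was lower in hβ3 as well, with a log2 difference of -2.15 ± 0.58 in DMSO and -3.43 ± 0.55 in docetaxel (adjusted p = 0.0072 and 3.2e-05). So the 3 type VI chains that were tested, those of the classical trimer, were each lower in hβ3, while Col6a4, Col6a5 and Col6a6 were too low to be members.

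The type IV chains split. Col4a6 (chrX:141165403-141474076), which occurs in basement membranes together with Col4a5, stood at 169, 161 and 156 CPM in pMx DMSO, 138 and 159 in Δβ3 DMSO and 43.6, 42.3 and 42.4 in hβ3 DMSO. The hβ3 cultures lay close together and apart from the rest. The hβ3 against pMx difference was -1.92 ± 0.08 (SE, adjusted p = 7.3e-16) in DMSO and -2.05 ± 0.08 (SE, adjusted p = 2.1e-16) in docetaxel. Col4a5 (chrX:141475385-141689234) held 12.9, 11.9 and 10.1 CPM in pMx DMSO, 9.90 and 10.2 in Δβ3 DMSO and 3.50, 4.48 and 3.38 in hβ3 DMSO. Its groups were equally well separated, with -1.61 ± 0.16 (SE, adjusted p = 1.8e-08) in DMSO and -1.61 ± 0.15 (SE, adjusted p = 9.2e-09) in docetaxel. Col4a2 on chromosome 8, a chain of the ubiquitous type IV network, had 907, 937 and 759.6 CPM in pMx DMSO and 986, 896 and 982 CPM in hβ3 DMSO, which overlap, and a difference of 0.14 ± 0.08 (SE, adjusted p = 0.23), with a 95% interval of -0.02 to 0.30.

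Col18a1 (chr10:77052178-77166548), the basement membrane collagen whose C-terminal fragment is endostatin, stood at 52.2, 51.3 and 52.8 CPM in pMx DMSO, 58.1 and 72.8 in Δβ3 DMSO and 23.0, 21.6 and 21.0 in hβ3 DMSO. The hβ3 cultures were below all others. The differences from pMx were -1.25 ± 0.11 (SE, adjusted p = 2.8e-09) in DMSO and -1.16 ± 0.11 (SE, adjusted p = 9.8e-09) in docetaxel. Col5a1, the α1 chain of the fibril-nucleating type V, was at 485, 485 and 419.8 CPM in pMx DMSO and 313, 281 and 323 CPM in hβ3 DMSO. The ranges did not overlap, and the difference was smaller, at -0.60 ± 0.08 (SE, adjusted p = 2.5e-06) in DMSO and -0.80 ± 0.08 (SE, adjusted p = 2.9e-08) in docetaxel. Col8a1, a chain of the sheet-forming type VIII, did not pass the test between any pair of lines: hβ3 differed from pMx by -0.07 ± 0.07 (SE, adjusted p = 0.53) in DMSO, with a 95% interval of -0.21 to 0.07.

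Types VII and XII went the other way. Col7a1 (chr9:108953586-108984875), the anchoring fibril chain, stood at 291, 312 and 304 CPM in pMx DMSO, 266 and 315 in Δβ3 DMSO and 880.2, 683 and 840.1 in hβ3 DMSO. The lowest hβ3 culture was above the highest culture of the other lines. The difference from pMx was 1.41 ± 0.08 (SE, adjusted p = 1.8e-12) in DMSO and 0.55 ± 0.08 (SE, adjusted p = 1.1e-05) in docetaxel. Col12a1 (chr9:79598991-79718831), a fibril-associated chain, was low throughout, at 1.36, 0.800 and 1.02 CPM in pMx DMSO, 0.487 and 0.180 in Δβ3 DMSO (6 and 2 counts) and 4.93, 4.55 and 6.77 in hβ3 DMSO. All hβ3 values lay above all others. The difference was 2.37 ± 0.28 (SE, adjusted p = 4.1e-07) from pMx in DMSO and 1.92 ± 0.26 (SE, adjusted p = 2.6e-06) in docetaxel, and from Δβ3 it was 3.95 ± 0.41 (SE, adjusted p = 4.4e-08) in DMSO.

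Among laminins, α5 and β2 differed between hβ3 and pMx in both treatments. Lama5, the α chain of the most widespread epithelial laminins, held 639, 608 and 599 CPM in pMx DMSO and 496, 459 and 479 CPM in hβ3 DMSO. The difference was -0.36 ± 0.09 (SE, adjusted p = 0.0026) in DMSO and -0.85 ± 0.09 (SE, adjusted p = 7.6e-08) in docetaxel, with no overlap in either treatment. Lamb2, the β2 chain, held 157, 147 and 126 CPM in pMx DMSO and 111, 108 and 96.3 CPM in hβ3 DMSO, and differed by -0.45 ± 0.09 (SE, adjusted p = 0.00027) and, in docetaxel, -0.59 ± 0.09 (SE, adjusted p = 1.0e-05). Lama3, an α chain of epithelial adhesion laminins, is counted at only 1 to 17 counts per library and was called in DMSO (1.99 ± 0.68, adjusted p = 0.030) but not in docetaxel (1.49 ± 0.66, adjusted p = 0.099).

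Lamb1 and Lamc1, the β1 and γ1 chains found in most laminins, did not pass the test against pMx in DMSO, at 0.08 ± 0.06 and -0.16 ± 0.07 (adjusted p = 0.41 and 0.088). In docetaxel both were lower in hβ3. Lamb1 held 762, 743 and 773 CPM in hβ3 and 954, 866 and 904 CPM in pMx, a difference of -0.26 ± 0.06 (SE, adjusted p = 0.0038). Lamc1 held 1116, 1042 and 1129 CPM in hβ3 and 1609.5, 1402 and 1502 CPM in pMx, a difference of -0.46 ± 0.07 (SE, adjusted p = 1.2e-05). Each of these pairs of ranges was separate.

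Against Δβ3, hβ3 gave 14 called chains in DMSO, 3 higher and 11 lower (23.3% of all genes, 11.1% higher and 12.2% lower), and 15 in docetaxel, 3 higher and 12 lower (19.9%, 9.6% and 10.3%). These comparisons use the same hβ3 cultures as those against pMx, so the values are given side by side only. Col6a1 differed by -2.96 ± 0.11 from Δβ3 in DMSO, where it differed by -2.79 ± 0.11 from pMx. For Col4a6 the differences were -1.80 ± 0.08 and -1.92 ± 0.08, and for Col7a1 1.46 ± 0.10 and 1.41 ± 0.08. Lamc1 was called against Δβ3 in DMSO (-0.27 ± 0.08 (SE, adjusted p = 0.010)), a call lost without the culture numbered 2 of that group. Lamb2 was called there as well (-0.35, adjusted p = 0.0094), and lost its call without Δβ3 DMSO 3. Col3a1 had -1.32 ± 0.41 in DMSO and -1.33 ± 0.41 in docetaxel (adjusted p = 0.041 each). Both calls were lost without any single hβ3 or Δβ3 culture of the same treatment and without some other single libraries. They were also lost with the filter removed (adjusted p = 0.063 and 0.066).

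Between Δβ3 and pMx no chain was called in either treatment. In edgeR's test 5 chains in DMSO and 2 in docetaxel had an unadjusted p under 0.05, and it called 0.332% and 0.453% of all genes. DESeq2 called 0 chains in each, and 75 and 99 genes in all. The median log2 difference over the 27 chains was -0.06 in DMSO and -0.06 in docetaxel, against -0.01 and 0.01 over all genes. Among the 18 chains called in any comparison at a mean of at least 2 CPM, Col12a1 differed most in DMSO. Its difference was -1.58 ± 0.48 (SE, adjusted p = 0.25). For Col6a1 the difference was 0.16 ± 0.11 with a 95% interval of -0.05 to 0.37, and for Col4a6 -0.12 ± 0.08 with -0.28 to 0.04. With 2 Δβ3 cultures per group, an uncalled difference does not show that the lines are alike.

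**Figure D2:**
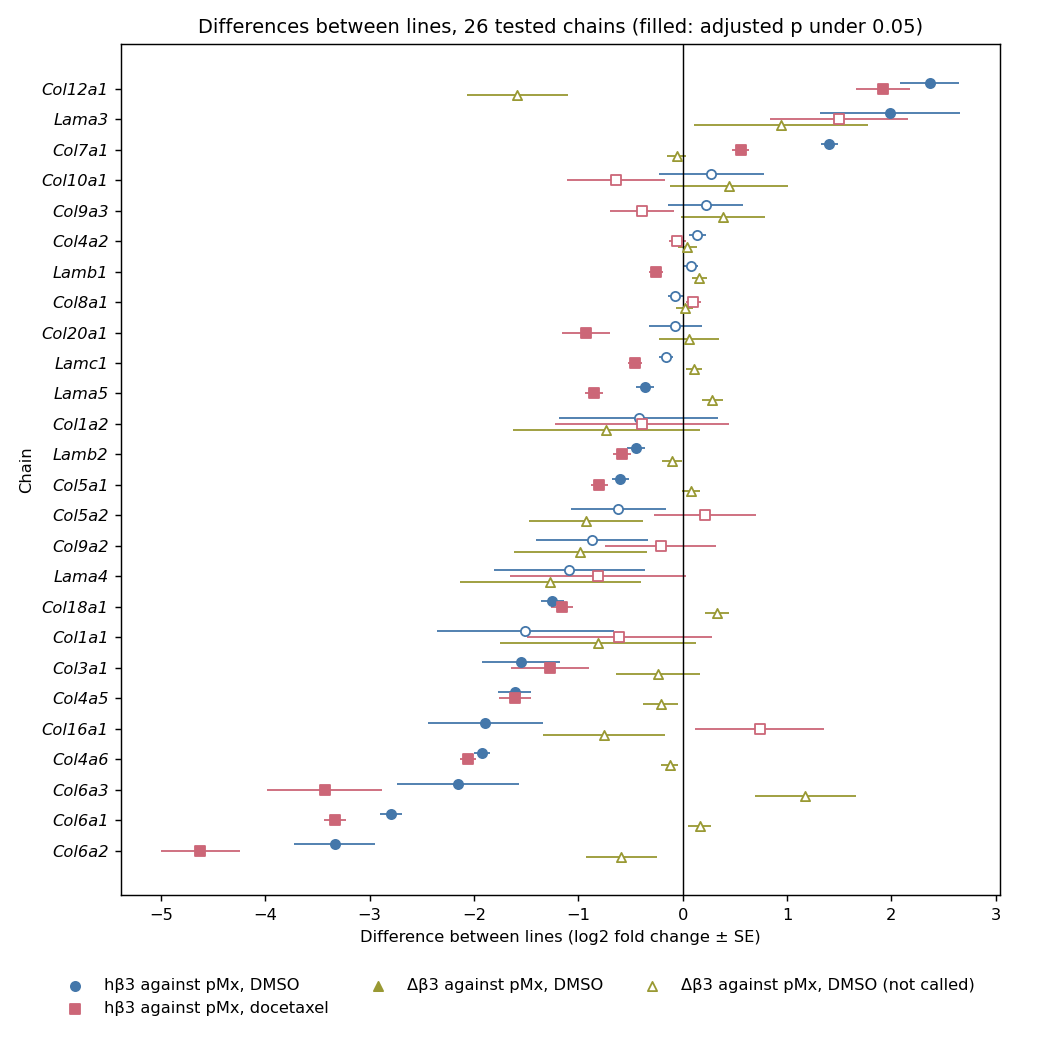
Log2 difference (x axis, ± SE) between lines for 26 of the 27 tested chains (y axis, ordered by hβ3 against pMx in DMSO): hβ3 against pMx in DMSO (blue circles) and in docetaxel (red squares), and Δβ3 against pMx in DMSO (olive triangles), filled where the adjusted p is under 0.05. Col6a2, Col6a1 and Col4a6 lie far to the left for hβ3 and Col12a1 and Col7a1 to the right, while no triangle is filled.

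The Rn45s share moves with the hβ3 line, as given above, and its part in these differences was not tested. The hβ3 DMSO cultures numbered 1, 2 and 3 had 27.5%, 10.9% and 33.0% Rn45s, and Col6a1 levels of 18.7, 24.4 and 17.4 CPM. Markers of other cell types were present at differing levels. The 12 fibroblast markers summed to 7.01 to 37.1 CPM in the tested libraries, with 8.74 to 18.3 CPM in hβ3, and Pdgfrb was at 0 in every library. The 14 endothelial markers summed to 22.1 to 42.3 CPM in hβ3 and 51.6 to 130.6 CPM in pMx, with Tek at 0 throughout. Most of that gap was Flt1, at 41.4 ± 3.75 CPM in pMx DMSO and 9.61 ± 0.796 CPM in hβ3 DMSO. The 8 smooth muscle and pericyte markers, Des and Rgs5 foremost, summed to 57.7 to 304 CPM in pMx and 25.8 to 82.5 CPM in hβ3, with none at 0 in all libraries. The leukocyte and macrophage list, with 8 of 9 genes in the table, summed to 8.09 to 27.7 CPM in pMx and 4.78 to 18.9 CPM in hβ3, with Adgre1 at 0 throughout. In DMSO, 0 of 7 tested fibroblast markers and 1 of 7 endothelial markers (Flt1) were called lower in hβ3 than in pMx. So were 1 of 3 smooth muscle and pericyte markers (Rgs5, -2.02 ± 0.57, adjusted p = 0.022) and 1 of 5 leukocyte and macrophage markers (C1qa, -1.88 ± 0.66, adjusted p = 0.047). Over all tested genes 13.5% were called lower. The part of these cells in the results was not tested.

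The next comparison asked what docetaxel changed in the chains. Averaged over the 3 lines, Col6a1, Col6a2, Col4a5, Col4a6, Col18a1, Col12a1, Col20a1 and Col9a3 rose, by mean log2 changes of 0.44 to 1.36, and laminins α5 and β2 rose by 0.42 and 0.40. Col8a1 fell by 0.46, and Col4a2 fell slightly. In all 16 of 27 chains were called, 13 higher and 3 lower, where 30.1% of all genes were called, 15.8% higher and 14.3% lower. The median change was 0.19 over the chains and 0.02 over all genes. In 17 of 27 chains the change had the same sign in each of the 3 lines. The share of all genes with 1 sign in the 3 lines was not determined, so this count cannot tell whether such agreement is particular to the chains. With all 18 libraries 9 chains were called, and 1891 genes in all, against 3715 with 16.

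Within pMx 17 chains were called, 15 higher and 2 lower (21.3% of all genes, 10.3% higher and the rest lower). Within Δβ3 there were 10, 9 higher and 1 lower (11.3%, 5.98% and 5.28%), or 6 without the Δβ3 DMSO culture numbered 2. Within hβ3 there were 10, 6 higher and 4 lower (12.5%, 7.28% and 5.17%). With all 18 libraries the counts were 4, 3 and 0, while calls over all genes were 440, 834 and 141, against 2626, 1391 and 1539 with 16. Called in the same direction in each line were Col6a1, Col4a5, Col4a6, Col18a1 and Lamb2, which rose, and Col8a1, which fell.

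Col6a1 rose in every line. The pMx cultures went from 148, 143 and 129 CPM in DMSO to 358, 349 and 330.3 CPM in docetaxel, the Δβ3 cultures from 153 and 161 to 384 and 347 CPM, and the hβ3 cultures from 18.7, 24.4 and 17.4 to 31.1, 33.1 and 38.6 CPM. In each line every treated culture was above every untreated one, and the treated hβ3 cultures remained below the untreated cultures of the other lines. The changes were 1.30 ± 0.10, 1.22 ± 0.12 and 0.76 ± 0.11 (SE, adjusted p = 1.3e-09, 2.3e-07 and 2.7e-05). Col6a2 rose in pMx, to 13.0, 9.78 and 9.40 CPM (1.31 ± 0.27 (SE, adjusted p = 0.0011)), and in Δβ3, to 6.49 and 9.85 CPM (1.51 ± 0.36 (SE, adjusted p = 0.0064)). In hβ3 it held 0.460, 0.294 and 0.532 CPM on 4 to 6 counts, which overlaps the untreated range, with a change of 0.03 ± 0.55 (SE, adjusted p = 0.99). The Δβ3 call for Col6a2 was lost without either of 2 cultures, Δβ3 DMSO 2 (1.06, adjusted p = 0.17) or Δβ3 docetaxel 3 (1.19, adjusted p = 0.10).

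Col4a6 and its neighbour Col4a5 rose together in all lines. Col4a6 reached 306, 319 and 307 CPM in pMx, 288 and 253 CPM in Δβ3 and 73.9, 71.6 and 78.8 CPM in hβ3. All of these lay above the untreated cultures of the same line, and the changes were 0.94 ± 0.07, 0.87 ± 0.09 and 0.81 ± 0.08, with adjusted p = 1.3e-09, 3.5e-07 and 6.0e-08. Col4a5 reached 18.6, 20.4 and 18 CPM in pMx, 16.8 and 19.6 CPM in Δβ3 and 6.67, 6.32 and 5.67 CPM in hβ3, with changes of 0.71 ± 0.14, 0.86 ± 0.18 and 0.71 ± 0.17. The mean changes were 0.87 ± 0.05 (SE, adjusted p = 5.0e-13) for Col4a6 and 0.76 ± 0.09 (SE, adjusted p = 7.0e-07) for Col4a5. Col4a2 had a mean change of -0.16 ± 0.05 (SE, adjusted p = 0.016), and within the lines it was called only in hβ3, at -0.29 ± 0.08 (SE, adjusted p = 0.019). The mean call was lost without Δβ3 DMSO 3 or Δβ3 docetaxel 3 (adjusted p = 0.059 and 0.070), and the hβ3 call without any of 3 hβ3 cultures (adjusted p up to 0.12).

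Col5a1 rose by a mean of 0.16 ± 0.05 (SE, adjusted p = 0.014), which was lost without Δβ3 DMSO 2 (adjusted p = 0.057) or Δβ3 docetaxel 1 (0.086). Col18a1 reached 63.2, 77.1 and 67.9 CPM in pMx, 97.5 and 75.9 CPM in Δβ3 and 29.3, 29.9 and 34.3 CPM in hβ3, a mean change of 0.44 ± 0.07 (SE, adjusted p = 1.2e-05). In Δβ3, where 1 of the untreated cultures had 72.8 CPM, the change was 0.41 ± 0.13 (SE, adjusted p = 0.041) and lost its call without any of 5 single libraries, with adjusted p up to 0.52. Col8a1 fell from 825, 846 and 714 to 554, 539.7 and 536 CPM in pMx and from 753, 773 and 746 to 562, 609 and 578 CPM in hβ3, and held 749 and 863 and then 630.4 and 546 CPM in Δβ3. Treated and untreated cultures did not overlap in any line, and the mean change was -0.46 ± 0.05 (SE, adjusted p = 2.2e-08). Without Δβ3 docetaxel 3 the fall within Δβ3, -0.45 ± 0.09, was -0.36 with adjusted p = 0.052.

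The fibril-associated chains rose from low levels. Col12a1 went from 1.36, 0.800 and 1.02 to 1.56, 1.98 and 2.37 CPM in pMx (0.95 ± 0.31 (SE, adjusted p = 0.028)), a call lost without any of 3 single pMx cultures, at 0.77 to 0.94 with adjusted p up to 0.17, and with the heart marker sum as a covariate (0.86, adjusted p = 0.067). It went from 0.487 and 0.180 to 2.47 and 1.71 CPM in Δβ3 (2.61 ± 0.47 (SE, adjusted p = 0.00043)), and in hβ3 it changed by 0.51 ± 0.23 (SE, adjusted p = 0.18) to 6.67, 8.90 and 7.45 CPM. Col20a1 went from 2.26, 2.13 and 2.11 to 7.26, 5.04 and 6.38 CPM in pMx, and to 4.03 and 5.68 CPM in Δβ3 and 4.06, 2.87 and 2.84 CPM in hβ3, with a mean change of 1.09 ± 0.15 (SE, adjusted p = 3.8e-06). It was not called within hβ3 (0.66 ± 0.25, adjusted p = 0.089). The Δβ3 call (1.09 ± 0.30, adjusted p = 0.018) was lost without Δβ3 DMSO 2, Δβ3 DMSO 3 or Δβ3 docetaxel 3. In docetaxel Col20a1 was lower in hβ3 than in pMx, at -0.93 ± 0.23 (SE, adjusted p = 0.0033), and in DMSO the difference was -0.07 ± 0.26. Col9a3 reached 4.13, 5.24 and 3.51 CPM in pMx, 3.77 and 3.51 in Δβ3 and 3.60, 3.01 and 3.10 in hβ3 from untreated values of 0.633 to 2.16 CPM, a mean change of 1.25 ± 0.21 (SE, adjusted p = 4.2e-05). Within the lines it was called in pMx and hβ3 but not in Δβ3. The hβ3 call (1.04, adjusted p = 0.039) was lost without any single treated hβ3 culture, among others. Col16a1, counted at 2 to 19 counts in the tested libraries, went against these: it fell in pMx, at -1.85 ± 0.57 (SE, adjusted p = 0.021) and had 0.78 ± 0.60 in hβ3 (adjusted p = 0.49).

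Of the laminins, Lama5 went from 639, 608 and 599 to 1127, 849 and 969 CPM in pMx (0.67 ± 0.09 (SE, adjusted p = 4.7e-06)), from 809 and 691 to 1036 and 926 CPM in Δβ3 (0.39 ± 0.11 (SE, adjusted p = 0.019)) and from 496, 459 and 479 to 560.0, 498 and 578 CPM in hβ3 (0.19 ± 0.09 (SE, adjusted p = 0.18)). In each line the treated cultures were above the untreated ones, in hβ3 by a small margin. The Δβ3 call was lost without Δβ3 DMSO 3 or Δβ3 docetaxel 1 (adjusted p = 0.21 each). Lamb2 reached 212, 185 and 187 CPM in pMx, 189 and 178 CPM in Δβ3 and 122, 129 and 139 CPM in hβ3, with changes of 0.44 ± 0.09, 0.46 ± 0.11 and 0.31 ± 0.09, and the calls in Δβ3 and hβ3 were lost without 2 and 3 single libraries. Lamb1 and Lamc1 rose in pMx, by 0.27 ± 0.06 and 0.27 ± 0.07 (adjusted p = 0.0033 and 0.0055), and in hβ3 had -0.06 ± 0.06 and -0.03 ± 0.07 (adjusted p = 0.62 and 0.87). Their mean changes of 0.13 ± 0.04 and 0.12 ± 0.04 are small. The first lost its call without Δβ3 DMSO 3 (adjusted p = 0.053) or Δβ3 docetaxel 1 (0.066) and with the filter removed (0.081). The second lost it with RLE factors (adjusted p = 0.078), with DESeq2 (0.087), with the filter removed (0.15) and without any of 10 single libraries.

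**Figure D3:**
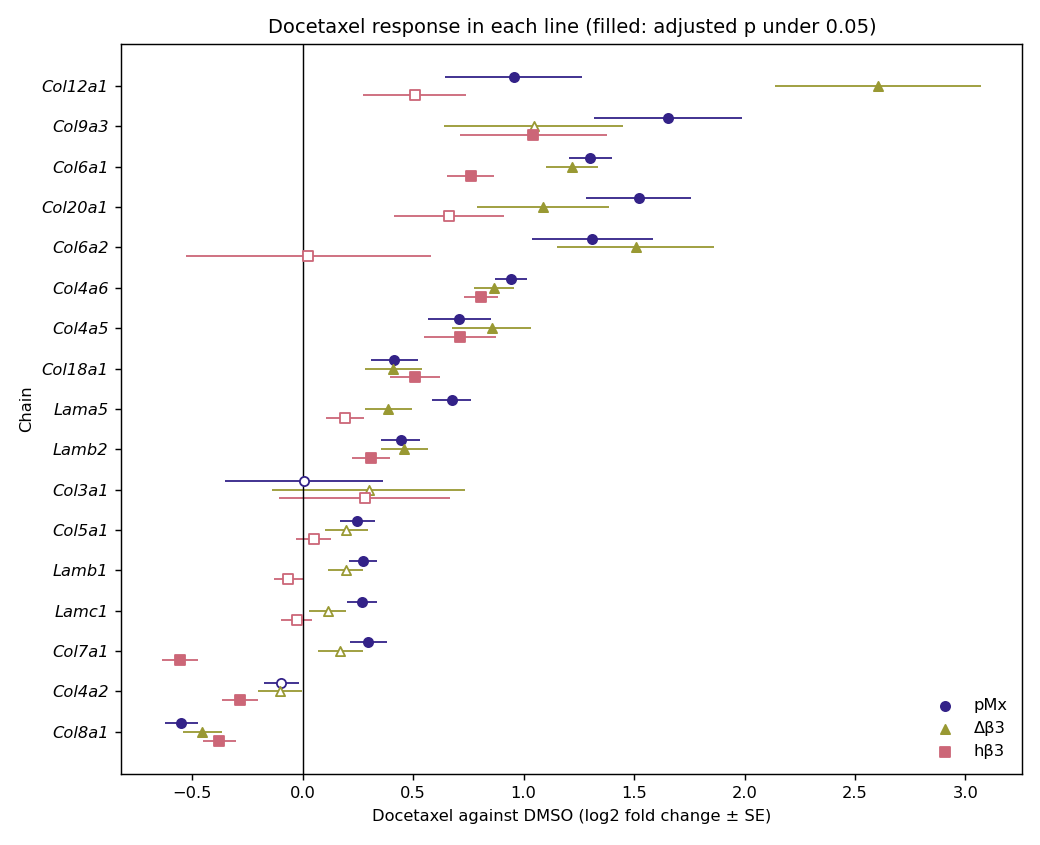
Log2 change with docetaxel (x axis, ± SE) in pMx (violet circles), Δβ3 (olive triangles) and hβ3 (red squares) for the 17 chains described by culture (y axis, ordered by the mean change), filled where the adjusted p is under 0.05. Col4a5, Col4a6, Col18a1 and Lamb2 lie close together in the 3 lines, and for Col7a1 the hβ3 square lies to the left of 0 while the pMx circle lies to the right.

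Whether the lines responded differently was tested by interaction terms. In the joint test of all lines 1 chain was called, Col7a1 (adjusted p = 0.00022), where 1.51% of all genes were called and 7 chains had an unadjusted p under 0.05. DESeq2 called 4 chains, which were Col6a1, Col7a1, Lama5 and Lamb1, and 335 genes in all, against 186 genes with edgeR. Col7a1 went from 291, 312 and 304 to 362, 379 and 373 CPM in pMx, from 266 and 315 to 324 and 329.8 CPM in Δβ3 and from 880.2, 683 and 840.1 to 502, 563 and 572 CPM in hβ3. All treated pMx cultures were above the untreated ones, and all treated hβ3 cultures were below theirs. The changes were 0.30 ± 0.08 (SE, adjusted p = 0.011) in pMx, 0.17 ± 0.10 (SE, adjusted p = 0.35) in Δβ3 and -0.55 ± 0.08 (SE, adjusted p = 4.0e-05) in hβ3. The response in hβ3 differed from that in pMx by -0.85 ± 0.12 (SE, adjusted p = 0.00014) and from that in Δβ3 by -0.72 ± 0.13 (SE, adjusted p = 0.0059). The last was lost without Δβ3 DMSO 2, at -0.61 with adjusted p = 0.087.

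Between hβ3 and pMx alone, 3 chains had a different response (2.3% of all genes, 1.25% higher and 1.05% lower), each of them lower in hβ3. Besides Col7a1 these were Col6a1, at -0.54 ± 0.14 (SE, adjusted p = 0.046), and Lama5, at -0.48 ± 0.12 (SE, adjusted p = 0.038). The call for Col6a1 was lost with RLE factors (adjusted p = 0.057) and without any of 13 single libraries, with adjusted p up to 0.15, and that for Lama5 without any of 9, up to 0.13. Between hβ3 and Δβ3 the 1 called chain was Col7a1 (0.591% of all genes). Between Δβ3 and pMx, edgeR called 0 of the chains and 0 of all genes (3 chains at an unadjusted p under 0.05, and 0 chains with DESeq2).

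Some fibrillar and vascular chains moved with heart muscle RNA. Col1a1 and Col1a2, the chains of type I collagen made by fibroblasts, stood at 198 and 198 CPM in the left-out culture with the most heart RNA. In the 16 tested libraries Col1a1 ranged from 0.809 to 8.93 CPM, with its highest values in pMx docetaxel 1 (8.93 CPM), pMx DMSO 1 (8.59 CPM) and pMx DMSO 2 (5.80 CPM). The same 3 cultures had the highest sums of heart markers, 2782, 2415 and 1627 CPM. Lama4, the α4 chain of vascular and muscle laminins, behaved in the same way, with 111 CPM in that left-out culture and its highest tested values in the same 3. Neither these nor Col5a2, Col9a2 and Col10a1 were called in any comparison.

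Col3a1, the type III chain of soft connective tissue, was called and shares this pattern in part. It held 44.5, 34.0 and 19.9 CPM in pMx DMSO, 25.2 and 30.4 in Δβ3 DMSO and 11.2, 12.9 and 9.27 in hβ3 DMSO, and 673 CPM in the left-out Δβ3 docetaxel culture. The hβ3 cultures were below all others, and the 3 pMx DMSO cultures had the same order as their heart marker sums of 2415, 1627 and 494 CPM. The difference between hβ3 and pMx was -1.55 ± 0.38 (SE, adjusted p = 0.010) in DMSO and -1.27 ± 0.38 (SE, adjusted p = 0.027) in docetaxel, the latter lost without pMx docetaxel 1 (-0.79, adjusted p = 0.083), hβ3 docetaxel 1 (-1.15, adjusted p = 0.094) or hβ3 docetaxel 2 (-1.24, adjusted p = 0.089). With the heart marker sum as a covariate, Col3a1 was lower in hβ3, at -0.90 in DMSO (adjusted p = 2.3e-05) and -0.96 in docetaxel (adjusted p = 1.0e-06). With the same covariate Col6a1 and Col4a6 kept their calls between hβ3 and pMx in both treatments.

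**Figure D4:**
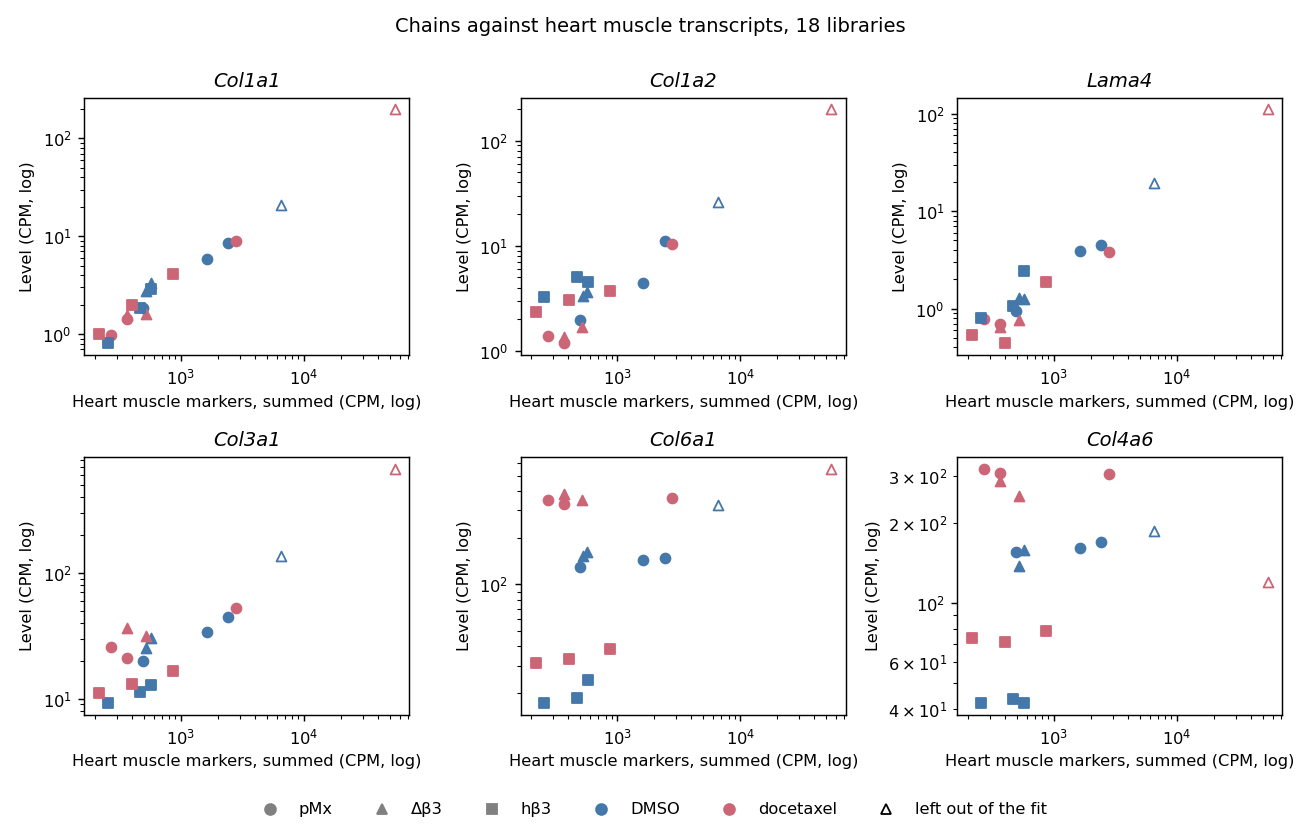
Level of 6 chains (y axes, CPM, log scale) against the summed level of 25 heart muscle markers (x axes, CPM, log scale) in all 18 libraries, by line (shape) and treatment (colour), with the 2 libraries left out of the tests as open triangles. Col1a1, Col1a2, Lama4 and Col3a1 climb with the heart marker sum up to the open triangle at 54649 CPM, whereas among the filled points the hβ3 cultures lie below all others for Col6a1 and Col4a6.

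In the left-out Δβ3 DMSO culture, 14 of the 28 members exceeded their highest value in the 16 tested libraries. Among them were chains that are well counted in the tumour cells: Col5a1 with 1442 CPM, Col4a2 with 1937 CPM and Col18a1 with 182 CPM. In the left-out docetaxel culture 16 members exceeded that value, 6 of them by more than 5-fold. Col5a1, Col4a2 and Col18a1 stood there at 819, 1561 and 49.7 CPM. Rn45s took 41.5% of counts in the left-out DMSO culture and 23.6% in the docetaxel one. The parts of heart RNA and Rn45s in these levels were not tested. Lamb2 was among the 16, with 1002 CPM, while Col4a5 and Col4a6 were low there, with 4.88 and 120.1 CPM, Col4a6 thus below the untreated Δβ3 cultures. Col6a1 stood at 322 CPM in the left-out DMSO culture, above the other untreated Δβ3 cultures, and at 552 CPM in the left-out docetaxel culture.

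Genes that process, bind or accompany these chains were listed by function. Of 19 tested genes of collagen modification, folding and cross-linking, 2 were called higher and 8 lower in hβ3 than in pMx in DMSO. The shares over all genes were 13.3% and 13.5%, and the median log2 difference was -0.20 (all genes -0.03). With docetaxel 3 rose and 1 fell, where 15.8% and 14.3% of all genes did, and the median was 0.04 (all genes 0.02). P3h4, needed for lysine modification of collagen, was at 47.9 ± 2.35 CPM in pMx DMSO and 9.27 ± 1.60 CPM in hβ3 DMSO, and the cross-linking enzyme Loxl3 differed by -1.64 ± 0.07 (SE, adjusted p = 4.4e-15). P3h2, a prolyl 3-hydroxylase that modifies type IV collagen, was higher in hβ3 by 2.06 ± 0.13 (SE, adjusted p = 5.8e-12). With docetaxel P3h3 and P3h4 rose by a mean of 0.35 ± 0.06 and 0.37 ± 0.07. Pcolce, which enhances procollagen cleavage, had a mean change of -0.14 ± 0.04 (SE, adjusted p = 0.020), but the lines went in opposite directions. Its mean level went from 420 to 347 CPM in pMx and from 420 to 335 CPM in Δβ3, but from 356 to 407 CPM in hβ3.

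Of 15 tested collagen and laminin receptors and their linkers, 5 were called higher and 2 lower in hβ3 than in pMx in DMSO. The shares over all genes were 13.3% and 13.5%, and the median was 0.05 (all genes -0.03). With docetaxel 3 rose and 3 fell, where 15.8% and 14.3% of all genes did, and the median was 0.15 (all genes 0.02). Plec and Dst, which tie integrins to intermediate filaments, were higher in hβ3 by 1.09 ± 0.08 (SE, adjusted p = 2.5e-10) and 0.85 ± 0.11 (SE, adjusted p = 8.5e-07), and the syndecan Sdc4 was lower, at -0.66 ± 0.07 (SE, adjusted p = 1.8e-08). With docetaxel Itga2, a collagen-binding integrin chain, rose by 0.91 ± 0.09 (SE, adjusted p = 1.7e-08) on average, from 8.43 ± 1.94 to 21.5 ± 1.69 CPM in pMx and with 15.6 ± 1.11 and 15.8 ± 0.573 CPM in hβ3. Itga7, a laminin-binding chain, fell by 0.73 (adjusted p = 2.1e-05).

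Of 11 tested basement membrane partners, 3 were called higher and 4 lower in hβ3 than in pMx in DMSO. The shares over all genes were 13.3% and 13.5%, and the median was -0.64 (all genes -0.03). With docetaxel 3 rose and 1 fell, where 15.8% and 14.3% of all genes did, and the median was 0.14 (all genes 0.02). Ntn1, a netrin related to laminin chains, was at 269 ± 25.3 CPM in pMx DMSO and 35.2 ± 4.46 CPM in hβ3 DMSO, a difference of -2.93 ± 0.11 (SE, adjusted p = 6.1e-16). Ntn4, which binds laminin γ chains, and Hspg2, the proteoglycan perlecan, were higher in hβ3 by 1.14 ± 0.10 (SE, adjusted p = 1.6e-09) and 1.06 ± 0.17 (SE, adjusted p = 0.00067). With docetaxel Agrn, the proteoglycan agrin, rose by a mean of 0.30 ± 0.08 (SE, adjusted p = 0.0084). It went from 49.4 ± 1.01 to 73.6 ± 7.17 CPM in pMx, and had 31.7 ± 6.72 and 31.4 ± 4.77 CPM in hβ3.

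Of 12 tested genes of other interstitial matrix, 2 were called higher and 6 lower in hβ3 than in pMx in DMSO. The shares over all genes were 13.3% and 13.5%, and the median was -1.70 (all genes -0.03). With docetaxel 5 rose and 2 fell, where 15.8% and 14.3% of all genes did, and the median was 0.41 (all genes 0.02). Thbs2, a matricellular protein that binds collagen-processing factors, was at 3366 ± 69.3 CPM in pMx DMSO and 365 ± 13.4 CPM in hβ3 DMSO, a difference of -3.20 ± 0.06 (SE, adjusted p = 2.4e-21), and rose with docetaxel by 0.81 ± 0.04 (SE, adjusted p = 3.7e-14). The direction was opposite for Tnc, tenascin C, which was higher in hβ3 by 0.99 ± 0.09 (SE, adjusted p = 1.0e-08) and had -0.55 ± 0.06 (SE, adjusted p = 9.4e-08) with docetaxel. Bgn, the small proteoglycan biglycan, was lower in hβ3, at -1.96 ± 0.19 (SE, adjusted p = 2.0e-08), and Emilin1, an elastic fibre protein, rose with docetaxel by 0.61 ± 0.09 (SE, adjusted p = 5.1e-06).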

How the data were processed

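RNA of 18 mouse cell cultures was sequenced as single 50-base reads after removal of ribosomal RNA, in 1 sequencing run per the labels. The authors deposited raw counts of reads for each transcript model. The submitters' processing notes name FastQC, HISAT2, featureCounts and mm10. Tool versions, the strand setting, the annotation and how shared reads were treated are not given in any source used here. Model lengths, in bases, were deposited beside the counts and left unused. All 63759 models carry a symbol and were summed to 32699 symbols.

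Levels and tests come from edgeR 4.0.16 in R 4.3.3: filterByExpr with 6 groups, TMM factors, and the robust quasi-likelihood F-test with 1 coefficient per group, two-sided, on 16 libraries. The 2 cultures with the highest heart marker sums were left out. The cultures pMx DMSO 1, pMx DMSO 2 and pMx docetaxel 1, with sums of 2415, 1627 and 2782 CPM, stayed in the tests. Calls needed an adjusted p (Benjamini-Hochberg, over 12356 genes) under 0.05. SEs are the log2 fold change divided by the root of F, and 95% intervals follow from them. The levels of the left-out cultures were set on the same scale. The steps were run on simulated counts with the same spread for all genes and changes only in hβ3 DMSO, in genes above 2 CPM. Uneven heart RNA and Rn45s were not simulated, so that run does not cover them. Alternatives were all 18 libraries, RLE factors, no filter, DESeq2 1.42.0, a replicate block, the highest-count model per symbol, a heart marker covariate and leaving out single libraries. Chains called in at least 1 of 11 comparisons with a mean of at least 2 CPM are described by culture, and from other lists up to 3 genes with the smallest adjusted p. Of the 18 chains that meet the rule, 1 is not reported here by name, though counts include it. Rn45s, Elf3, Ehf, Pdgfrb, Tek, Adgre1 and the low chains named (such as Col4a1, Lama3 and Col16a1) fall outside that rule and were chosen after their values were seen. Members, lists and tests were chosen with earlier results of these data known. Coordinates are from GENCODE M21 (mm10).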

Additional observations from a re-analysis of the deposited data

Results flagged for a closer look

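Results in this section were singled out by fixed rules and are given as values. The docetaxel response of Col7a1 differed between the lines, with a joint adjusted p of 0.00022, and was lower in hβ3 than in pMx by -0.85 ± 0.12 (SE, adjusted p = 0.00014) and than in Δβ3 by -0.72 ± 0.13 (SE, adjusted p = 0.0059) on the log2 scale. The response was also lower in hβ3 than in pMx for Col6a1, at -0.54 ± 0.14 (SE, adjusted p = 0.046), and for Lama5, at -0.48 ± 0.12 (SE, adjusted p = 0.038). All of these come from interaction terms in edgeR. Neither Col6a1 nor Lama5 passed the joint test (adjusted p = 0.11 and 0.11), and their calls were lost without any of 13 and 9 single libraries, that of Col6a1 also with RLE factors.

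In the Δβ3 docetaxel culture numbered 2, which was left out of the tests, 6 chains exceeded their highest level in the 16 tested libraries by more than 5-fold. Col3a1 stood at 673 CPM, Col1a2 at 198 CPM and Col1a1 at 198 CPM. Lama4 stood at 111 CPM, Col5a2 at 90.2 CPM and Col9a2 at 23.7 CPM. That culture had 54649 CPM of heart muscle markers.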

How the results depend on the processing

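With all 18 libraries, heart RNA included, fewer chains were called: 9 for the mean docetaxel change, 4 in pMx, 3 in Δβ3 and 0 in hβ3, 7 and 9 for hβ3 against pMx in DMSO and in docetaxel, and 0 in the joint interaction test. Of 110 calls of the chains that meet the rule for description, 50 held there and 57 were lost. The biological coefficient of variation was 36.1% over 18 libraries and 13.2% over 16. The 3 others changed sign without passing the test: Col18a1 with docetaxel in Δβ3 (-0.49, adjusted p = 0.32), Col5a1 for the mean docetaxel change (-0.018, adjusted p = 0.96) and Col12a1 for hβ3 against Δβ3 in docetaxel (-0.22, adjusted p = 0.87). Of the 110 calls, 108 held with RLE factors, 106 without the filter, 109 with DESeq2, 110 with the highest-count model per symbol and 109 with the heart marker covariate. The joint interaction test called 4 chains without the filter (Col6a1, Col7a1, Col12a1 and Lama5), 4 with DESeq2 and 4 with the covariate (both Col6a1, Col7a1, Lama5 and Lamb1), and 1 with RLE factors and with the highest-count model; the cause was not tested.

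Leaving out single libraries gave 13 to 18 called chains for the mean docetaxel change, 13 to 17 in pMx, 6 to 10 in Δβ3 and 7 to 10 in hβ3. It gave 14 to 15 and 15 to 16 for hβ3 against pMx in DMSO and docetaxel, 12 to 14 and 14 to 15 for hβ3 against Δβ3, 0 for Δβ3 against pMx and 1 to 2 for the joint interaction. Of the 110 calls 86 held in all 16 such fits, 24 were lost in at least 1 and 0 changed sign. Where a group was left with 1 culture, that culture was assumed to vary like the others.

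The deviations of same-numbered cultures had 35 correlations from -0.26 to 0.34 (median 0.02, other pairs -0.02), and 9 of 16 libraries correlated best with their own number. As not every such pair deviated together and no label says that a number is shared, the numbers were not taken as pairing the samples. With the replicate block 15 chains were called for the mean docetaxel change, 8 in Δβ3 and 2 in the joint interaction (Col7a1 and Lama5), and 106 of the 110 calls held. The 4 lost were Col18a1 (adjusted p = 0.076) and Col20a1 (0.052) with docetaxel in Δβ3, Lamc1 for the mean docetaxel change (0.063) and Col3a1 for hβ3 against Δβ3 in docetaxel (0.053). Depth limits the low chains: Col6a2 had 2 to 8 counts and Col6a3 1 to 6 counts in each hβ3 library.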
